A study of Rattus norvegicus with 129 samples.

Results

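Sulfotransferases were followed through 4 genes, Sult1a1, Sult1b1, Sult1e1 and Sult2a1, in rat livers hybridised to 3 types of oligonucleotide array. Every probe set that the array annotation assigned to 1 of these genes was taken, 20 in all, from annotations that name 15062 gene symbols. The older array type carried 12 of them: 2 for Sult1a1 (L19998_at, L19998_g_at), 1 for Sult1b1 (D89375_s_at), 2 for Sult1e1 (M86758_at, S76489_s_at) and 7 for Sult2a1 (D14987_f_at, D14988_f_at, J02643_at, rc_AA818122_f_at, M31363mRNA_f_at, rc_AA817987_f_at, rc_AI028836_at). The last 3 of these Sult2a1 sets are annotated to Sult2a6 as well. The 2 newer types each carried 4, 1 per gene (1370019_at, 1387314_at, 1368733_at and 1369570_at). A set ending in f_at is one that the manufacturer designed against a family of like transcripts, so a Sult2a1 value of such a set may include its relatives.

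The series asked how ligands of liver nuclear receptors and perfluoroalkyl acids change hepatic transcripts, and holds 129 rat arrays in 5 separate studies. In the first, male and female Sprague-Dawley rats received 100 mg/kg phenobarbital, 100 mg/kg PCN (a steroid ligand of the pregnane X receptor) or vehicle (methylcellulose with Tween 80) by gavage, with 5 rats in each of 18 groups. Sampling followed a single dose by 6 or 24 h, or the last of 5 daily doses by 24 h. In the second, Sprague-Dawley rats labelled female and 4 weeks old ate a control diet or one with 600 mg/kg D3T, an inducer of Nrf2 target genes, 4 rats each, for a time the labels do not give. The third compared 5 mg/kg PFOS daily for 3 weeks with vehicle (Tween-20) in female Sprague-Dawley rats 60 days old, 2 rats each. The fourth gave male Sprague-Dawley rats 10 weeks old PFOA at 20 mg/kg, PFOS at 10 mg/kg or vehicle (Alkamuls EL-620) daily, 3 rats each, duration not in the labels. The fifth gave male Wistar Hanover rats 60 mg/kg Wy-14643, a PPARalpha agonist, or carboxymethyl cellulose daily for 1, 3 or 7 days, 3 rats per group, and 1 rat of the 3-day Wy-14643 group has no dose in its label. No label says whether the rats of a group were housed, extracted or hybridised apart, so the p-values measure the spread between these samples.

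Cytosolic sulfotransferases move a sulfonate group from the donor PAPS to a hydroxyl or amino group, which makes the product more water-soluble and usually ends the activity of a hormone. In liver they form a conjugation pathway beside glucuronidation. Sult1e1 acts on estrogens, Sult2a1 on bile acids and steroids such as DHEA, Sult1a1 on small phenols, and Sult1b1 on thyroid hormones and phenols. Rat liver is known for large differences in these enzymes between the sexes, set by the pattern of growth hormone secretion.

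Levels below are log2 of the normalised intensity plus 16, so 4.00 is the floor reached by an intensity of 0 or less, and changes are differences of these levels with their standard error (SE). A change was called when limma's moderated test gave a Benjamini-Hochberg adjusted p under 0.05 over all probe sets of the array. The scale compresses changes near the floor, and levels of different probe sets are not compared. In bulk liver, fewer cells of a type and less RNA per cell cannot be told apart.

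Some arrays stood apart. Rat 1003 (vehicle males, 6 h) correlated at 0.627 with its group mates over all probe sets, against 0.974 to 0.981 among those, and 42.6 percent of its probe sets lay in stretches that matched the others better 1 row away, so it was left out and that group has 4 rats. The rats of the D3T study are labelled female, but all 8 had Sult1e1 (M86758_at) levels of 9.97 to 10.93, against 10.78 to 11.72 in 44 males and 4.00 to 8.19 in 45 females of the phenobarbital and PCN study. Cyp2c13, a male-specific cytochrome P450, was at 10.86 to 11.38 in the D3T study and at 4.05 to 5.66 in those females, and Cyp2c12, a female-specific one, was at 4.52 to 6.28 against 10.22 to 11.31. The males were at 10.68 to 11.84 for Cyp2c13 and 5.91 to 10.01 for Cyp2c12. These studies were normalised separately. The rats of the D3T study are called rats labelled female throughout. Deposited means per array ran from 93.3 to 417 in that study, with the D3T diet arrays at the low end, while the first study spanned 159 to 454, and quantile normalisation was applied to all studies but the 3-week PFOS one.

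Among the 12 member probe sets of the phenobarbital and PCN study, phenobarbital changed 6 in males after 5 doses, 2 in females at 24 h and 1 in females at 6 h. It changed none in males at 6 or 24 h or in females after 5 doses. Over all 8740 probe sets tested, phenobarbital called 0.732, 2.31 and 4.91 percent in males at 6 h, 24 h and 5 doses, and 2.61, 4.04 and 2.47 percent in females. PCN changed 3 member sets in females at 24 h and 3 after 5 doses, 1 in females at 6 h, 1 in males after 5 doses and none in males at 6 or 24 h. The share of all probe sets called with PCN was 1.88, 0.572 and 4.77 percent in males and 2.24, 3.70 and 8.43 percent in females. Both treatments shared the vehicle rats. The sets called with phenobarbital were those of Sult2a1 and Sult1e1, and with PCN those of Sult1a1 and Sult1b1.

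**Figure D1:**
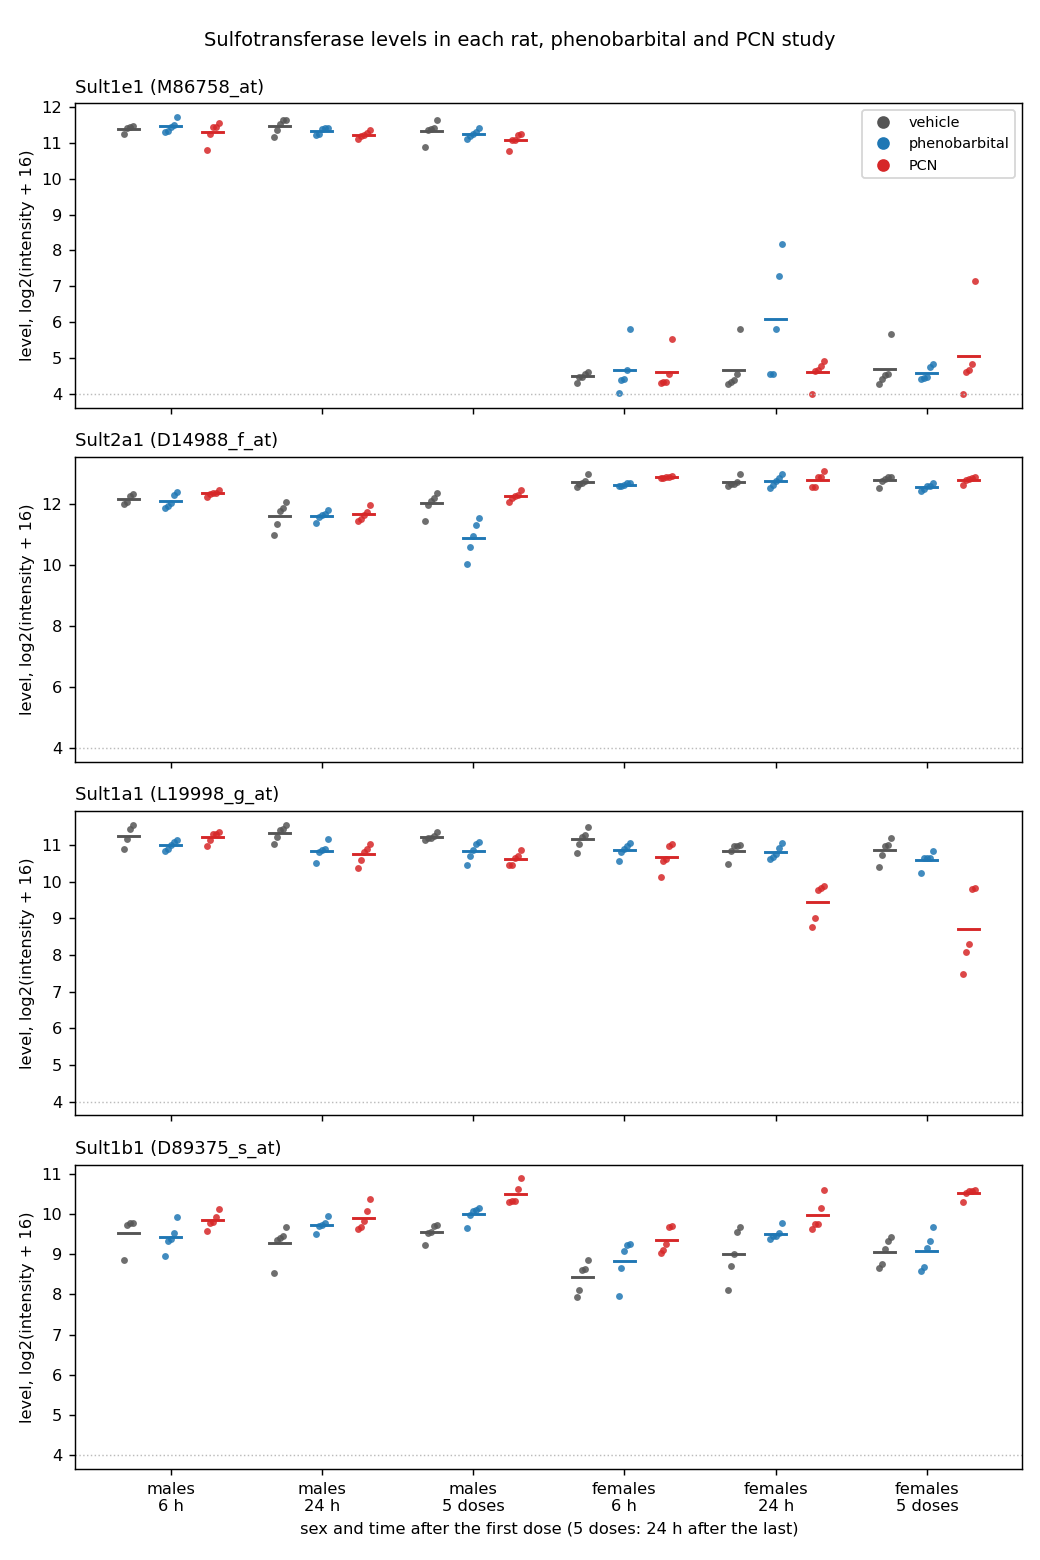
Level of each sulfotransferase (vertical axes, log2 of intensity plus 16, dotted line at the floor of 4.00) in each rat of the phenobarbital and PCN study, by sex and time (horizontal axis), with bars at group means. Sult1e1 is near 11 in all male groups and near the floor in most females, Sult2a1 is lowest in males after 5 doses of phenobarbital, Sult1a1 is lowest in females after 5 doses of PCN, and Sult1b1 is highest in both sexes after 5 doses of PCN.

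Sult1e1, estrogen sulfotransferase, was a male transcript in these livers. In vehicle males of the phenobarbital and PCN study M86758_at lay between 10.88 and 11.65 (11.40 ± 0.21, SD, n = 14; deposited intensities 1099.8 to 3513). In vehicle females it lay between 4.28 and 5.82 (4.62 ± 0.47, SD, n = 15; deposited intensities 3.4 to 33.3). The sexes did not overlap. Females minus males was -6.90 ± 0.39 (SE) at 6 h, -6.79 ± 0.37 at 24 h and -6.64 ± 0.37 after 5 doses of vehicle, with adjusted p-values of 7.41e-25, 6.4e-26 and 2.12e-25, and the second set, S76489_s_at, gave differences of -7.00, -7.26 and -7.12. Among all probe sets 6.49, 5.03 and 5.30 percent differed between vehicle females and males at the 3 times. Of the cell type lists, 1 of 5 macrophage markers was lower in females at 6 and 24 h, 1 of 7 parenchyma markers at 6 h, 2 of 2 blood markers at 24 h and 1 of 3 bile duct markers after 5 doses. Whether these bear on the sex differences was not tested. Ordered by mean, the 9 male groups came first and the 9 female groups last for both sets. Of the 17 pairs of neighbouring groups in that order, the pair that spans the sexes was the only one whose ranges did not overlap, with a gap of 4.99 for M86758_at and 5.69 for S76489_s_at.

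In females, Sult1e1 rose 24 h after 1 dose of phenobarbital, and this rested on a few rats. M86758_at was at 4.28, 4.34, 4.38, 4.55 and 5.82 in vehicle females and at 4.56, 4.57, 5.82, 7.28 and 8.19 in phenobarbital females, so the groups overlapped and 2 rats stood above every vehicle female. The change was 1.41 ± 0.37 (SE, adjusted p = 0.0109), and S76489_s_at, whose 2 highest values (5.67 and 6.56) came from the same rats, changed by 0.89 ± 0.25 (adjusted p = 0.0237). Without rat 4510 the changes were 0.88 (adjusted p = 0.168) and 0.54 (adjusted p = 0.272), without rat 4507 they were 1.11 (adjusted p = 0.0782) and 0.76 (adjusted p = 0.0907), and leaving out any of the vehicle rats 1507 to 1510 also ended the second call (adjusted p = 0.0575 to 0.0768). With a pseudocount of 1 the changes were 2.26 and 2.56, and with 64 they were 0.79 and 0.37 (adjusted p = 0.0716 for the second). Neither call held with only the groups compared (adjusted p = 0.48 and 0.464), and the first was lost with rat 1003 kept (adjusted p = 0.153). The highest female level, a deposited intensity of 343, was under the lowest male value of 1099.8. In the same comparison Cyp3a2, another male-predominant P450, rose by 1.35 (adjusted p = 0.00691). Cyp2c13 in rats 4507 and 4510 was at 5.21 and 4.70, within the vehicle females' 4.34 to 5.66. Cyp2c11, a male P450, was at 8.48 to 8.95 with phenobarbital against 7.13 to 8.35 with vehicle. It was read from an f_at set, which may include relatives. Cyp2c12 was at 10.22 to 10.82 against 10.97 to 11.18, and Prlr, the female-predominant prolactin receptor, at 8.71 to 10.14 against 10.09 to 10.95. Their part in the result was not tested. The difference between phenobarbital and PCN females at 24 h was called for M86758_at (1.48 ± 0.37, adjusted p = 0.00849), where 4.47 percent of all probe sets were called. It too was lost without rat 4510 (0.95, adjusted p = 0.0967) or rat 4507 (1.18, adjusted p = 0.0518), with rat 1003 kept and with only the groups compared.

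In males no change of Sult1e1 with phenobarbital or PCN was called. The 6 changes of M86758_at lay between -0.26 and 0.07. The second set, S76489_s_at, was at 11.30, 11.38, 11.48, 11.51 and 11.65 in vehicle males after 5 doses and at 10.52, 10.66, 10.86, 11.08 and 11.11 with PCN. These groups did not overlap, but the change of -0.62 ± 0.25 (SE, adjusted p = 0.161) was called only with a pseudocount of 64 (adjusted p = 0.000387) or with only those groups fitted (adjusted p = 0.0493). With 5 doses of phenobarbital that set changed by -0.40 ± 0.25 (adjusted p = 0.456, and 0.0431 with a pseudocount of 64). In PCN females after 5 doses 1 rat, 5512, stood at 7.15 beside 4.00 to 4.83 in the other 4, and that group's change of 0.36 ± 0.37 was not called. In males of the fourth study, 1368733_at was at 13.05, 13.10 and 13.21 with vehicle, 12.65, 12.69 and 12.84 with PFOA and 13.08, 13.19 and 13.27 with PFOS. All 3 PFOA rats lay below all vehicle and PFOS rats. Sult1e1 fell by 0.40 ± 0.08 (SE) with PFOA (adjusted p = 0.0333) and changed by 0.06 ± 0.08 with PFOS (adjusted p = 0.846), beside 6.05 and 0.461 percent of all 31042 probe sets called. The call with PFOA was lost with 5 of the 6 arrays left out in turn (adjusted p = 0.0798 to 0.101), namely each vehicle rat and the PFOA rats at 12.65 and 12.69, and with median scaling, where the change was -0.64 (adjusted p = 0.0873). Liver parenchyma markers summed to 49562 to 57485 with PFOA against 61292 to 64540 with vehicle, with 1 of 7 called lower, and endothelial markers summed to 2753 to 3190 against 4147 to 5616, with 2 of 6 called lower. Stellate cell markers summed to 2743 to 2995 against 4124 to 5342, with 2 of 7 lower (Col3a1 by -0.69 and Lrat by -1.73), and macrophage markers to 4844 to 7348 against 8877 to 11862, with 1 of 8 lower (Cd14, -1.65). Bile duct markers summed to 747 to 874 against 292 to 434, with 1 of 4 higher (Epcam, 1.28, adjusted p = 0.00873). Their part in the result was not tested. In the Wistar males of the fifth study Sult1e1 stood between 13.01 and 13.48 in all 18 rats, and the changes with Wy-14643 of 0.13, 0.09 and 0.04 at 1, 3 and 7 days were not called.

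Sult2a1, the hydroxysteroid and bile acid sulfotransferase, was higher in females and is read here from 6 sets, since J02643_at was at or near the floor on all arrays (at most 4.43 in vehicle rats). In vehicle males D14988_f_at lay between 10.98 and 12.37 (11.91 ± 0.40, SD, n = 14) and in vehicle females between 12.51 and 12.98 (12.73 ± 0.15, SD, n = 15), with no overlap. Females exceeded males by 0.57 ± 0.16 (SE, adjusted p = 0.0164) at 6 h, 1.11 ± 0.15 (adjusted p = 4.03e-08) at 24 h and 0.75 ± 0.15 (adjusted p = 0.000312) after 5 doses. Of the 6 sets, 2, 6 and 5 were called higher in females at the 3 times. At 6 h both calls depended on vehicle male rat 1001, without which the differences were 0.51 (adjusted p = 0.0737, D14988_f_at) and 0.61 (adjusted p = 0.061, D14987_f_at), and D14988_f_at also on rats 1002 and 1504. After 5 doses, leaving out vehicle male 1011 or 1012 ended the calls of M31363mRNA_f_at, rc_AA817987_f_at and rc_AI028836_at, and at 24 h leaving out vehicle male 1007 ended that of rc_AA818122_f_at (0.68). Both 6 h calls were lost with median scaling too (adjusted p = 0.0697 and 0.0554).

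The Sult2a genes lie in a row on rat chromosome 1, in the order Sult2a6, Sult2a1, Sult2a2. There is 1 other annotated start between the first pair. Their promoters are shown because sets annotated to all 3 genes fell with phenobarbital in males and with D3T. With PCN in males sets annotated to Sult2a6 rose and none of Sult2a1 was called. The called sets of Sult2a2, and those of Sult2a6 not annotated to Sult2a1, are all f_at sets, so a separate change of each gene is not shown. The Sult2a2 set that is not f_at, rc_AA945589_at, was not called in either fall. The 250 bases before each start (RefSeq, build GRCr8, minus strand) are chr1:84638948-84639197 for Sult2a1, chr1:84097809-84098058 for Sult2a6 and chr1:85104533-85104782 for Sult2a2. Capitals mark an IR0 element, a pair of nuclear receptor core sites that face each other with no base between them.
Sult2a1: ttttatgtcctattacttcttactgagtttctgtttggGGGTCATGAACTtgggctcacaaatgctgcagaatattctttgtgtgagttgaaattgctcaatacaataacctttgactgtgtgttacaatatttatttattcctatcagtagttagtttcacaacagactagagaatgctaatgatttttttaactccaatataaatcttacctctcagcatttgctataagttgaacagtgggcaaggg
Sult2a6: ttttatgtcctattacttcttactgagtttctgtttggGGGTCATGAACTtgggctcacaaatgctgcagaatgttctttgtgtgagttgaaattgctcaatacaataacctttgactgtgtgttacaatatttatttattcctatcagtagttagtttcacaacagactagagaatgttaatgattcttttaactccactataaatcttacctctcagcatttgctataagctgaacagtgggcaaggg
Sult2a2: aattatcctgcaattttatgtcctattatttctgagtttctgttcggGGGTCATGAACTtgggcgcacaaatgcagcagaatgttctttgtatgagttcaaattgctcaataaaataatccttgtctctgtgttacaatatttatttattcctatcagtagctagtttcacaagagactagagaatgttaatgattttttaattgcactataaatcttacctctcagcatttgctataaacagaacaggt
Over these windows Sult2a1 and Sult2a6 were identical at 245 of 250 aligned positions (98 percent), and Sult2a1 and Sult2a2 at 214 of 259 (82.6 percent). The receptor core sites searched on either strand were AGGTCA, the variant GGGTCA, the variant AGTTCA and the variant GGTTCA. Pairs searched were IR0, direct repeats (DR1 to DR5, named by the bases between) and pairs facing away from each other (ER6 and ER8). All 3 Sult2a promoters held the same 12 bases, gggtcatgaact, starting 212 bases before the start in Sult2a1 and Sult2a6 and 203 before it in Sult2a2. An IR0 element was in 16 of 33469 rat promoter windows of this length (0.0478 percent), and these 3 were among them. A single receptor core site, by contrast, was in 39.1 percent of the windows. None of the paired arrangements searched matched in the windows of Sult1a1, Sult1b1 or Sult1e1, and Sult1b1 and Sult1e1 held 1 single receptor core site each. The Nrf2-type core TGANNNGC was in 34.7 percent of all windows and in none of these 6. A match is a stretch of letters and not a measured binding site.

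Phenobarbital given on 5 days lowered Sult2a1 in males. D14988_f_at was at 11.45, 11.97, 12.10, 12.21 and 12.37 with vehicle and at 10.04, 10.57, 10.94, 11.31 and 11.53 with phenobarbital, and the ranges overlapped only between the lowest vehicle and the highest phenobarbital rat. The fall was 1.14 ± 0.15 on the log2 scale (SE, adjusted p = 3.14e-08), and the other 5 sets changed by -1.29 to -1.51 (adjusted p = 2.15e-09 to 0.0162). Rats 4011 and 4014 were the 2 lowest on all 6 sets, as on D14987_f_at at 8.44 and 9.12, where the other phenobarbital rats stood at 9.82, 10.10 and 10.77 and vehicle rats at 10.57 to 11.42. The 18 groups shared 1 estimate of spread, and with only the vehicle and phenobarbital males fitted the changes were the same size but none of the 6 calls held (adjusted p = 0.127 to 0.231). For rc_AI028836_at, a dim set, the call was also lost without vehicle rat 1013 (change of -1.28, adjusted p = 0.0789), without phenobarbital rats 4014 or 4011 (adjusted p = 0.072 and 0.0563) and with a pseudocount of 64 (change of -0.79). Of the 6 probe sets of the relatives Sult2a2 and Sult2a6, 5 fell in the same comparison, with changes from -0.84 to -1.15. These 5 are f_at sets, which may include Sult2a1. The sixth, rc_AA945589_at of Sult2a2, is not, and changed by -0.65 (adjusted p = 0.162). Beside the fall in males 1 of 7 parenchyma markers was called lower (Alb, by -0.11) and 1 of 3 bile duct markers, Epcam, higher (0.65, adjusted p = 0.00108), with the bile duct list at 96.9 to 161 against 81.3 to 112. None of the 5 macrophage, 4 endothelial or 6 stellate markers was called. Their part in the fall was not tested.

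**Figure D2:**
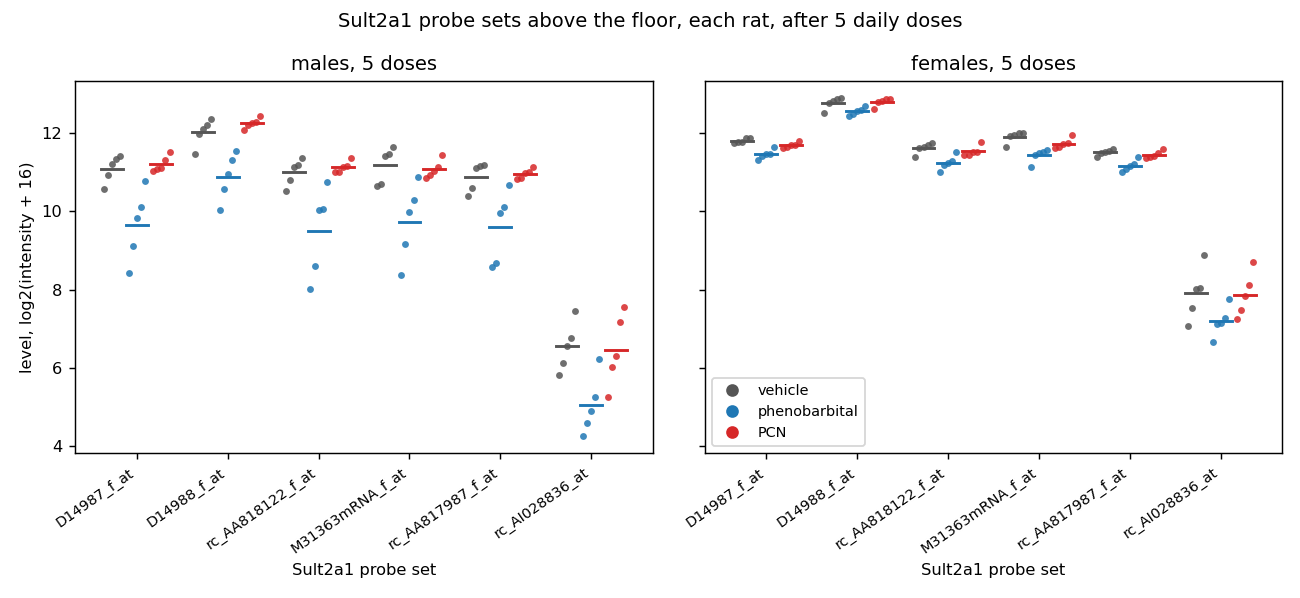
Level of the Sult2a1 probe sets above the floor (horizontal axis; vertical axis log2 of intensity plus 16) in each rat after 5 daily doses, males left and females right, with bars at group means. On all of them the phenobarbital males sit lowest, at 10.88 on D14988_f_at against 12.02 with vehicle and 12.25 with PCN. In females the phenobarbital means are below those of vehicle as well, with changes of -0.22 to -0.71, none called.

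The fall was called after 5 doses and not after 1. Among the 6 sets, males 24 h after 1 dose of phenobarbital had changes of -0.82 to 0.01, none called, although that of rc_AI028836_at, the lowest, was with only those groups fitted (adjusted p = 0.0382). The change after 5 doses minus that after 1 dose was called for 5 of the 6 sets, with differences of -1.12 to -1.40 (adjusted p = 0.00669 to 0.0272) beside 0.217 percent of all probe sets. For the same difference in females 1.62 percent were called and no member set, although Sult1e1 (M86758_at) was without phenobarbital rat 4508 or 4509 (-1.89 in both, adjusted p = 0.0307 and 0.0372). With PCN the difference between 5 doses and 1 was called for no member set, beside 0.206 percent of all in males and 0.584 percent in females. Median scaling ended all 5 calls (adjusted p = 0.0824 to 0.157), as did fitting only the groups compared, and keeping rat 1003 ended all but that of D14988_f_at. Leaving out rat 4014 ended 4 of them, with changes of -1.10 (D14987_f_at), -1.25 (M31363mRNA_f_at), -0.89 (rc_AA817987_f_at) and -1.05 (rc_AA818122_f_at), and for the last 2 sets 8 and 9 of the 20 arrays did so (adjusted p up to 0.171).

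In females the 6 sets changed by -0.22 to -0.71 after 5 doses of phenobarbital, none called, and D14988_f_at stood at 12.44 to 12.69 against 12.51 to 12.89 with vehicle. With only those groups fitted D14987_f_at was called in females (-0.34, adjusted p = 0.034), while no call in males held under that kind of fit. The effect in females minus that in males was called for D14987_f_at (1.10 ± 0.25, SE, adjusted p = 0.0319) and D14988_f_at (0.92 ± 0.21, adjusted p = 0.0451), and 0.103 percent of all probe sets were called. With 1 array left out, 13 and 16 of 20 arrays ended these calls, the lowest values coming without rat 4011 (0.80, adjusted p = 0.183, and 0.71, adjusted p = 0.264), with median scaling the adjusted p-values were 0.281 and 0.384, and with rat 1003 kept they were 0.944 and 0.0944. Without phenobarbital rat 4013 M31363mRNA_f_at, rc_AA817987_f_at and rc_AA818122_f_at were called too (1.25, 1.21 and 1.45, adjusted p = 0.00799, 0.00223 and 0.00184). No member set was called for this difference at 6 or 24 h, where 1.02 and 0.0114 percent of all sets were.

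Phenobarbital and PCN differed in males after 5 doses on all 6 sets, by -1.33 to -1.64 (adjusted p = 2.58e-10 to 0.0386), with 3.08 percent of all probe sets called. PCN males stood at 12.06, 12.21, 12.26, 12.29 and 12.44 on D14988_f_at, above all 5 phenobarbital males. With only those groups fitted no call held (adjusted p = 0.0894 to 0.382). At 6 and 24 h in males the 2 treatments differed on no member set, beside 0.355 and 1.19 percent of all. PCN itself changed the 6 sets by -0.45 to 0.26 over the 6 comparisons, none called. In the same males after 5 doses 2 Sult2a6 sets rose with PCN, M33329_f_at by 0.84 (adjusted p = 0.00116) and X63410cds_f_at by 0.57 (adjusted p = 0.00582).

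At 6 h in females 1 dim Sult2a1 set was called lower with phenobarbital. On rc_AI028836_at, annotated to Sult2a1 and Sult2a6, vehicle females stood at 6.79, 7.00, 7.98, 8.10 and 8.49 and phenobarbital females at 4.88, 5.20, 5.76, 6.79 and 7.30, a change of -1.69 ± 0.41 (SE, adjusted p = 0.00744). The other 5 sets had changes between -0.29 and -0.09 and were not called. Without vehicle rat 1504 or phenobarbital rats 4504 or 4503 the adjusted p-values were 0.0528, 0.0774 and 0.0513, and with only the groups compared it was 0.327. The set was also lower with phenobarbital than with PCN, by 1.94 ± 0.41 (adjusted p = 0.000598), where 6.95 percent of all sets were called. Of the relatives' sets, rc_AA945589_at of Sult2a2 changed by -0.74 ± 0.27 with phenobarbital (adjusted p = 0.151) and was lower with phenobarbital than with PCN (-0.997 ± 0.27, adjusted p = 0.00911).

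Sult2a1 was lower on the D3T diet in the rats labelled female, after quantile normalisation. Deposited intensities were lower on that diet for other members too, as for Sult1a1 (L19998_at) at 452 to 604 against 1771 to 2843. The size of each change therefore depends on that normalisation. D14988_f_at was at 11.02, 11.37, 11.43 and 11.49 on the control diet and at 8.46, 9.24, 9.28 and 9.48 on the D3T diet, with no overlap. The fall was 2.21 ± 0.24 (SE, adjusted p = 0.00355). D14987_f_at fell by 1.56 ± 0.19 (adjusted p = 0.00451), M31363mRNA_f_at by 2.08 ± 0.23 (adjusted p = 0.00363) and rc_AA817987_f_at by 1.76 ± 0.23 (adjusted p = 0.00602). On rc_AA818122_f_at 1 D3T rat was at the floor and the others at 7.45, 8.42 and 8.75 against 10.13 to 10.55 on the control diet, and the change of -3.11 was not called (adjusted p = 0.115), while without that rat it was (-2.05, adjusted p = 0.0224). In all 4 of 12 member sets were called in a comparison where 12.6 percent of all probe sets were. The dim Sult2a1 set rc_AI028836_at, not an f_at set, changed by -0.93 ± 0.29 and was not called (adjusted p = 0.0956). Of the 6 Sult2a2 and Sult2a6 sets, 5 fell, with a change of -2.34 ± 0.20 on D14989_f_at of Sult2a2 (adjusted p = 0.00227). These 5 are f_at sets, which may include Sult2a1. The sixth, rc_AA945589_at of Sult2a2, is not, and changed by 0.17 ± 0.52 (adjusted p = 0.999). The remaining members did not pass. Sult1b1 changed by 0.36 ± 0.14 (adjusted p = 0.161). Sult1a1 changed by -0.16 ± 0.10 on L19998_g_at and -0.31 ± 0.13 on L19998_at (adjusted p = 0.207), the latter called without D3T rat 3 (-0.42, adjusted p = 0.0439). Sult1e1 changed by 0.25 ± 0.21 and -0.41 ± 0.11 (adjusted p = 0.0578) on its 2 sets, the second called without D3T rat 2 (-0.50, adjusted p = 0.0207). Other lists moved too: 4 of 7 liver parenchyma markers were called lower, with a summed level of 34947 to 36998 against 40227 to 41223, and 2 of 5 macrophage, 1 of 4 endothelial and 1 of 6 stellate markers were lower. Of 2 blood markers 1 was lower, of 4 lymphocyte markers 1 was called each way, and of 3 bile duct markers none was called. Cyp3a2 fell by 1.48. Their part in the result was not tested.

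**Figure D3:**
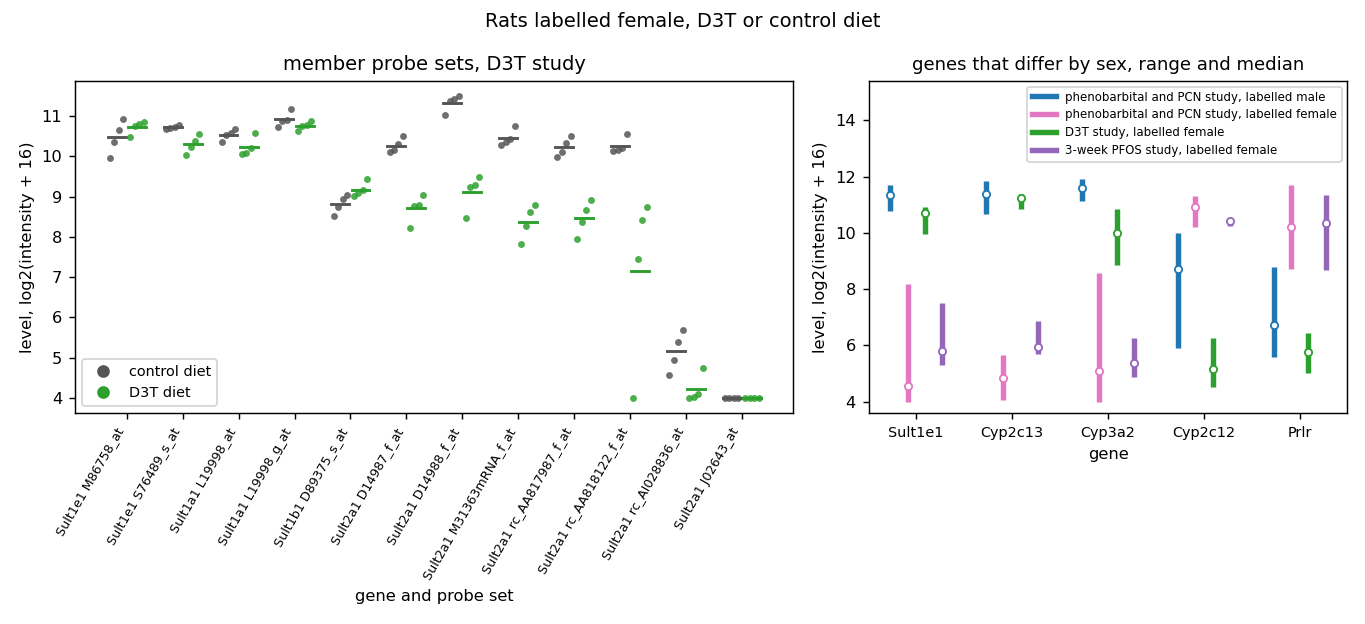
Left: level (log2 of intensity plus 16) of all 12 member probe sets in each of the 8 rats of the D3T study, with bars at group means. Right: range (line) and median (circle) of Sult1e1 and 4 P450 or receptor genes that differ by sex, in 3 studies on the same array type. On the D3T diet 4 Sult2a1 sets were called lower, beside 12.6 percent of all probe sets called. For Cyp2c13 the rats labelled female of the D3T study sit within the range of the males of the phenobarbital and PCN study. For Sult1e1 they are at 9.97 to 10.93, partly under those males' 10.78 to 11.72 and above the females' 4.00 to 8.19.

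The single Sult2a1 set of the newer arrays, 1369570_at, was dim, with deposited intensities of at most 56.3 in the 27 males measured, so its changes rest on values near the floor. It changed by -0.41 ± 0.33 (SE) with PFOA and 0.08 ± 0.33 with PFOS in males, neither called. One day of Wy-14643 gave 4.00, 5.09 and 5.36 against 5.89, 6.09 and 6.15 with vehicle, a change of -1.22 ± 0.36 (adjusted p = 0.043) in a comparison with 11.5 percent of 15866 probe sets called. It was lost with 5 of 6 arrays left out (adjusted p = 0.0603 to 0.157), without rat 03, at the floor, at a change of -0.81, and its size ran from -0.55 to -2.66 with pseudocounts of 64 and 1. In the same comparison 3 of 7 liver parenchyma markers were called lower, with a summed level of 81348 to 81810 against 88124 to 88695. Their part in the result was not tested. At 3 and 7 days no member set was called, beside 10.8 and 13.1 percent of all, nor was any for 7 days minus 1 day, beside 1.87 percent. With 3 weeks of PFOS in females D14988_f_at stood at 11.41 and 12.35 against 12.03 and 12.22.

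Sult1a1, the phenol sulfotransferase, fell with PCN in females, both 24 h after 1 dose and after 5 doses. At 24 h L19998_g_at was at 10.47, 10.83, 10.96, 10.96 and 11.00 in vehicle females and at 8.76, 9.01, 9.76, 9.83 and 9.87 in PCN females. After 5 doses it was at 10.41, 10.71, 10.96, 10.99 and 11.18 with vehicle and at 7.47, 8.09, 8.31, 9.80 and 9.82 with PCN. The groups did not overlap at either time. The falls were 1.40 ± 0.22 (SE, adjusted p = 7.75e-06) and 2.15 ± 0.22 (adjusted p = 3.65e-12), and the second set, L19998_at, fell by 1.69 ± 0.28 (adjusted p = 1.37e-05) and 2.78 ± 0.28 (adjusted p = 8.38e-13). The effect after 5 doses minus that after 1 dose was -0.76 ± 0.32 on L19998_g_at (adjusted p = 0.438) and -1.09 ± 0.39 on L19998_at (adjusted p = 0.292), neither called, although the latter was without PCN rat 5512 (-1.47, adjusted p = 0.0234) or 5513 (-1.45, adjusted p = 0.0257). The PCN females split after 5 doses: on L19998_at rats 5514, 5515 and 5511 were at 6.22, 7.20 and 7.25 and rats 5513 and 5512 at 9.34 and 9.42, with the same 3 rats lowest on both sets. All 4 calls held with any 1 of the 10 arrays left out and with only the groups compared. At 6 h the change on L19998_g_at was -0.49 ± 0.22, not called.

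In males the changes with the same doses did not pass. L19998_g_at was at 11.14, 11.18, 11.19, 11.24 and 11.34 in vehicle males after 5 doses and at 10.44, 10.46, 10.64, 10.70 and 10.87 with PCN. These groups did not overlap either, but the change of -0.60 ± 0.22 (adjusted p = 0.113) and that of L19998_at, -0.67 (adjusted p = 0.162), were not called. With only the vehicle and PCN males fitted both were (adjusted p = 0.0121 and 0.0335). The effect of PCN in females minus that in males was called after 5 doses, at -1.56 ± 0.32 (SE, adjusted p = 0.00227) and -2.11 ± 0.39 (adjusted p = 0.000487), with 0.606 percent of all probe sets called. At 6 and 24 h, with 0.0458 and 0.0229 percent called, no member set was. With only those 4 groups fitted the adjusted p-values after 5 doses were 0.309 and 0.289. In PCN females after 5 doses some sex-dependent genes moved as well: Cyp3a2 and Cyp2c11, male P450s, rose by 2.20 and 1.65. The Cyp2c11 set is an f_at set, which may include relatives. On it the females of the study (6.96 to 10.25) overlapped the males (9.32 to 11.06). Prlr, the female-predominant prolactin receptor, fell by 1.43. Cyp2c13, by contrast, was at 4.05 to 5.66 in all 45 females of the study, against 10.68 to 11.84 in the males. Sult1e1 changed by 0.36 and 0.09 on its 2 sets in these PCN females, neither called. Of the liver cell type lists, 1 of 7 parenchyma markers was called lower and 1 higher, at 24 h as after 5 doses. After 5 doses 1 of 3 bile duct markers, Epcam, was higher (0.78, adjusted p = 1.87e-05), and the list summed to 105 to 117 with PCN against 59.4 to 79.1 with vehicle. None of the macrophage, endothelial or stellate markers was called at either time. The part of these genes in the Sult1a1 result was not tested.

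Phenobarbital left Sult1a1 within -0.48 to -0.04 of vehicle on L19998_g_at, with no call in either sex. The difference between phenobarbital and PCN was called in females at 24 h (1.36 ± 0.22 and 1.55 ± 0.28, SE) and after 5 doses (1.90 ± 0.22, adjusted p = 7.97e-10, and 2.44 ± 0.28, adjusted p = 3.02e-10), where 6.91 percent of all sets were called. With those groups alone the latter 2 adjusted p-values were 0.0708 and 0.0795. Between those groups 2 of 5 macrophage markers were higher with phenobarbital, 1 of 3 bile duct and 1 of 2 blood markers were lower, and 1 of 7 parenchyma markers was called each way. Their part was not tested. In the order of group means, the step down from phenobarbital females after 5 doses to PCN females at 24 h (1.15) was the only one of 17 without overlap. In vehicle rats females and males differed by -0.10 to -0.48, not called. With PFOA 1370019_at was at 11.12, 12.20 and 12.30 against 12.77, 12.77 and 13.04 with vehicle, with no overlap, and the change of -0.99 ± 0.33 was not called (adjusted p = 0.147). The PFOS males stood at 12.28, 12.64 and 12.81, a change of -0.29 ± 0.33. With 3 weeks of PFOS in females L19998_g_at was at 10.31 and 10.44 against 10.75 and 10.85 (-0.42 ± 0.07, adjusted p = 0.826). In that study limma called 0 of 8740 probe sets and no member, with 421 at an unadjusted p under 0.05. Wy-14643 changed 1370019_at by -0.32, 0.16 and -0.26 at 1, 3 and 7 days, none called. The first was called with only those groups fitted (adjusted p = 0.0495), and the last without Wy-14643 rat 12 (-0.44, adjusted p = 0.00967).

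Sult1b1, the thyroid hormone sulfotransferase, rose with PCN in both sexes. In females D89375_s_at was at 8.65, 8.75, 9.12, 9.32 and 9.43 after 5 doses of vehicle and at 10.30, 10.52, 10.57, 10.57 and 10.60 after PCN. In males it was at 9.23, 9.52, 9.55, 9.70 and 9.73 with vehicle and at 10.31, 10.31, 10.33, 10.62 and 10.88 with PCN. Neither pair of groups overlapped. The rises were 1.46 ± 0.22 in females (SE, adjusted p = 6.6e-07), a 2.75-fold difference on this scale, and 0.94 ± 0.22 in males (adjusted p = 0.00372), and the effect in females minus that in males, 0.52 ± 0.32, was not called (adjusted p = 0.66). In females the rise was already called at 6 h (0.92 ± 0.22, adjusted p = 0.00787) and 24 h (0.97 ± 0.22, adjusted p = 0.00339), when the groups stood at 7.93 to 8.85 against 9.02 to 9.69 and at 8.10 to 9.67 against 9.63 to 10.60. Without vehicle rat 1505 the 6 h change was 0.80 (adjusted p = 0.0542), and with only the groups compared the 6 and 24 h values had adjusted p = 0.115 and 0.185. Males changed by 0.30 ± 0.24 at 6 h and 0.62 ± 0.22 at 24 h, not called. In males after 5 doses of PCN Epcam was called higher too (0.52, adjusted p = 0.0118), with the bile duct list at 102 to 143 against 81.3 to 112, and 1 of 7 parenchyma markers was called each way. Their part in the rise of Sult1b1, like that of the female markers given for Sult1a1, was not tested.

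Phenobarbital changed Sult1b1 by -0.11 to 0.51 over its 6 comparisons, none called, and was below PCN in females after 5 doses by 1.44 ± 0.22 (SE, adjusted p = 2.02e-06). PCN females and males after 5 doses headed the order of the 18 group means, at 10.51 and 10.49, and the step from there to phenobarbital males after 5 doses (9.99) was the only one without overlap. Vehicle females were below males at 6 h by 1.11 ± 0.24 (adjusted p = 0.000692), and by 0.28 and 0.49 at the other 2 times, not called. With only those groups the 6 h adjusted p was 0.0738, and those females had the lowest of the 18 group means (8.42). PFOA changed 1387314_at by -0.01 ± 0.14 and PFOS by 0.23 ± 0.14, with rats at 12.28 to 12.72 and 12.57 to 12.79 against 12.33 to 12.66. Wy-14643 changed it by -0.12, -0.07 and -0.07, and 3 weeks of PFOS changed D89375_s_at by 0.15 ± 0.33 in females. None of these was called.

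**Figure D4:**
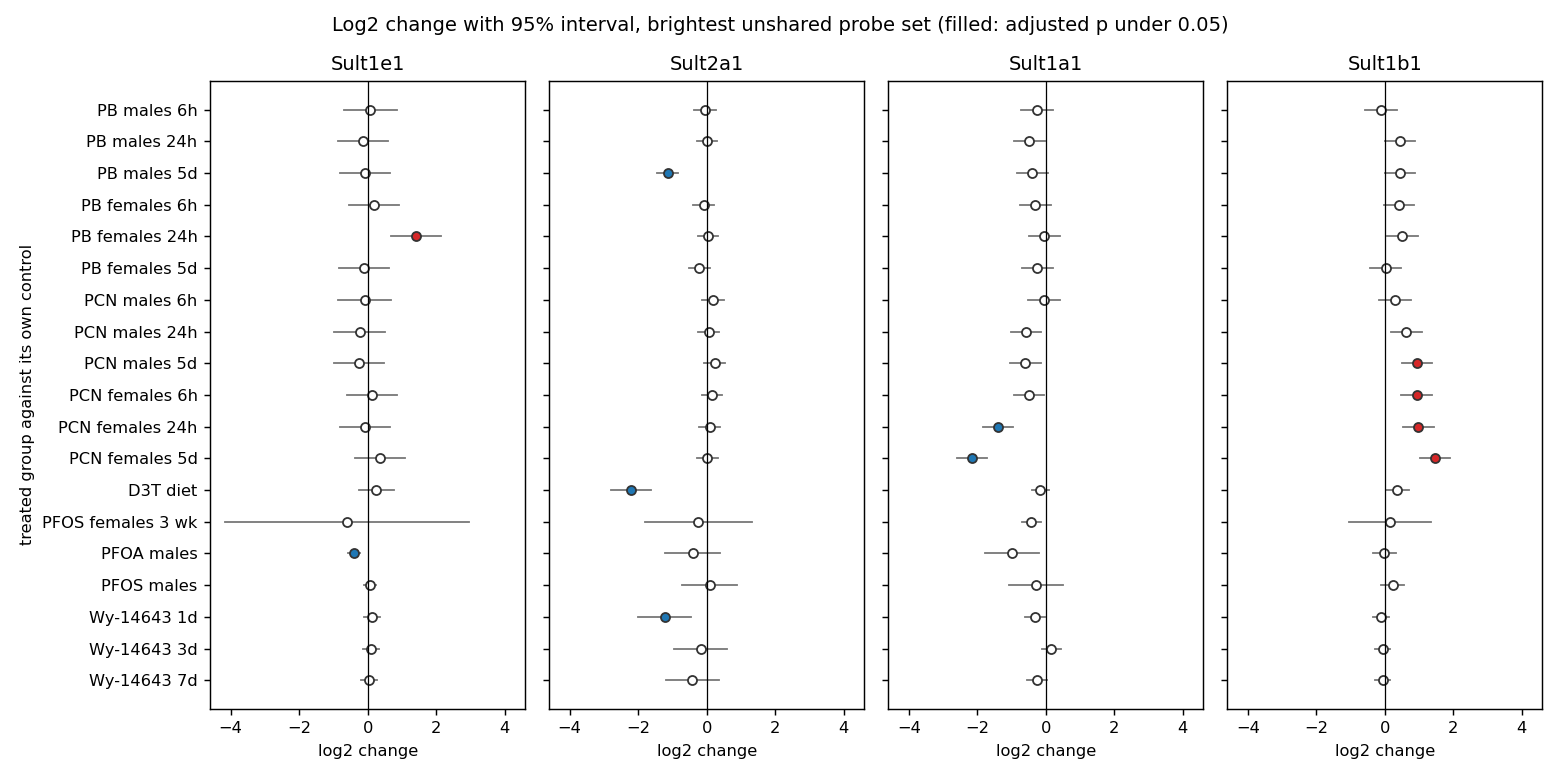
Log2 change (horizontal axis) of the brightest probe set assigned to that gene alone, for each treated group against its own control (vertical axis), with 95 percent interval as a line. Filled circles passed an adjusted p of 0.05, red higher and blue lower. Sult1b1 has 4 rises, all with PCN, and Sult2a1 has 3 falls, with 5 doses of phenobarbital in males, the D3T diet and 1 day of Wy-14643.

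Other genes that handle sulfate were read from lists, with 1 unshared probe set per gene. Of other cytosolic sulfotransferases 6 to 9 of 13 listed genes were measured, giving 126 tests over the 19 treatment comparisons, of which 1 (0.794 percent) was higher and 10 (7.94 percent) lower. Over all probe sets the mean of the 19 comparisons was 2.60 percent higher and 2.30 percent lower. Beside the Sult2a genes, Sult1c3 fell with 5 doses of PCN in females (-1.76 ± 0.39, SE, adjusted p = 0.000662), with D3T (-0.49 ± 0.10) and with PFOA (-0.38 ± 0.05), and Sult1c2a fell with Wy-14643 at 1, 3 and 7 days (-0.80, -0.84 and -1.03). Of the genes that supply and recycle the sulfate donor 4 tests of 145 (2.76 percent) were higher and 22 (15.2 percent) lower. Papss2, which makes PAPS, fell with Wy-14643 by 0.71, 1.08 and 1.16 and in males with 5 doses of phenobarbital by 0.62 ± 0.15 (adjusted p = 0.0052). Cdo1, the first enzyme of cysteine oxidation towards sulfate, fell in 10 comparisons, by 0.33 to 0.70. Bpnt1, which clears the spent donor, rose in 3 comparisons, by 0.33 to 0.50, and fell with D3T by 0.53. Suox, sulfite oxidase, fell with PCN in females at 24 h and in both sexes after 5 doses (-0.30 to -0.32) and with PFOA (-0.80), and rose with Wy-14643 at 7 days (0.40). Slc26a1, a sulfate transporter, fell with D3T (-0.65) and with Wy-14643 at 3 and 7 days (-0.66 and -0.68). Of the sulfatases, which remove sulfate from a range of substrates, 3 tests of 52 (5.77 percent) were higher, all Arsb with Wy-14643 (0.52, 0.79 and 0.76). Another 2 (3.85 percent) were lower, Sts with D3T (-0.78) and Arsa with Wy-14643 at 1 day (-0.91). The median over the other sulfotransferases was -0.37 with 5 doses of phenobarbital in males, -0.03 with 5 doses of PCN in females and -0.53 with D3T. The median change over all probe sets was 0 in every comparison fitted, differences between effects included, so it gives no baseline for these values.

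As a description, each member was set against the 2928 genes above a level of 6 in at least 1 of the 18 group means of the phenobarbital and PCN study. The group means most like Sult1e1 (M86758_at) were those of Obp3, Hsd3b5 and Cyp2c13 (Pearson r = 0.996, 0.994 and 0.993 over 18 groups). For Sult2a1 (D14988_f_at) they were Sult2a2 (0.969) and Sult2a6 (0.962), both read from f_at sets that may include Sult2a1, and Rev1 (0.891). For Sult1a1 (L19998_g_at) they were Pctp (0.886), Gnmt (0.878) and Clps (0.869), and for Sult1b1 Gstm2 (0.914), Slco1a4 (0.91) and Pgrmc1 (0.904). All of these means come from the same arrays, and the 9 male and 9 female groups form separate clusters for Sult1e1.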

How the data were processed

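Livers of 129 rats were measured on 3 types of oligonucleotide array. The deposited values are 1 linear intensity per probe set and array; how the authors computed them is not given in the sources used here. Where the medians of log2 intensity ranged over more than 0.5 within a study (all but the 3-week PFOS study), arrays were quantile normalised. Values below 0 were set to 0, 16 was added and log2 taken. Each study was fitted with all its groups in limma 3.58.1 (R 4.3.3; lmFit and eBayes), with Benjamini-Hochberg adjustment over all probe sets and a threshold of 0.05. The fit was tested on simulated data. Rat 1003 was left out because its probe sets are displaced. Alternatives were pseudocounts of 1 and 64, median scaling, a filter on dim probe sets, trended robust moderation, keeping rat 1003, fitting only the groups compared, a replicate block and leaving out each array. The members and gene lists were chosen with earlier results of these data known. All members were named, with the 3 genes most like each by group means, and list genes where called. Replicate numbers of the D3T study did not pair the rats: same-numbered rats correlated at -0.205 to 0.266, 1 of 4 pairs above 0.1.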

Additional observations from a re-analysis of the deposited data

Results flagged for a closer look

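Over 4 genes and 20 groups of 4 or 5 rats, 1 rat stood far from the others in 7 of 80 combinations. Chance puts 1 rat far from the others in about 1 in 20 combinations if values are normally distributed. For Sult1b1 (D89375_s_at) these were rat 1001 at 8.86 in vehicle males at 6 h, rat 1009 at 8.54 in vehicle males at 24 h, both below their group, and rat 5515 at 10.3 in PCN females after 5 doses. For Sult1e1 (M86758_at) they were females above their group: rat 1506 at 5.82 and rat 1513 at 5.67 with vehicle at 24 h and 5 doses, and rats 5502 at 5.54 and 5512 at 7.15 with PCN at 6 h and 5 doses. The other rats of these Sult1e1 groups were near the floor, where the rate given for chance need not hold.

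A further 9 differences between effects passed the test of the difference itself. The PCN effect on Sult1a1 after 5 doses, females minus males, was -2.11 on L19998_at and -1.56 on L19998_g_at. The phenobarbital effect on Sult2a1 after 5 doses, females minus males, was 1.10 on D14987_f_at and 0.92 on D14988_f_at. In males the phenobarbital effect on Sult2a1 after 5 doses minus that after 1 dose was -1.23 on D14987_f_at, -1.15 on D14988_f_at, -1.40 on M31363mRNA_f_at, -1.12 on rc_AA817987_f_at and -1.27 on rc_AA818122_f_at.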

How the results depend on the processing

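None of the 1167 alternative values reversed, but 41 of 65 called member tests lost their call under at least 1 alternative, 21 of them when 1 array was left out. With only the groups compared, all 9 calls with phenobarbital were lost and 3 others, all on Sult2a1 sets, were made (D14987_f_at in females after 5 doses, M31363mRNA_f_at in females and rc_AI028836_at in males at 24 h), and phenobarbital minus PCN gave 4 calls, 3 of them among the original 13, and PCN 9, 6 of them among the original 8. There, effects in females minus males went from 4 to 0, 5 doses minus 1 from 5 to 0 and PFOA and PFOS from 1 to 0. Median scaling left 2 of the sex differences in effect, 0 of the dose differences and 0 with PFOA and PFOS. Keeping rat 1003 left 2 and 1 of the former. Without the dimmest probe sets PFOA and PFOS gave 0 and Wy-14643 0, as did a pseudocount of 1 for Wy-14643. With 1 array left out the counts ranged from 7 to 9 (phenobarbital), 7 to 8 (PCN), 12 to 14 (their difference), 17 to 23 (vehicle sexes), 2 to 7 (sex differences in effect), 1 to 6 (dose differences), 4 to 6 (D3T), 0 to 1 (PFOA and PFOS) and 0 to 3 (Wy-14643), and stayed at 0 for 3 weeks of PFOS and for Wy-14643 at 7 days minus 1 day. With a replicate block 4 D3T calls were made, as without it. Groups of 2 to 5 rats and levels near the floor limit precision, and the causes of these losses were not tested.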
